A study of Mus musculus with 8 samples.

Results

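The 9 genes described here are Plek, Rab27b, Treml1, Clec1b, Pf4, Ppbp, Itga2b, Gp9 and Gp5, named platelet and megakaryocyte genes that were taken by symbol from a count table of 22869 symbols. All 9 were in the table. Plek and Rab27b were part of the choice because they were higher in mutant than in wild type cushions, so their difference there, and every genotype difference in cushions given for the set, is a description and carries no p-value. Total RNA was sequenced from atrioventricular (AV) cushions, the swellings that form heart valves and septa, and from ventricles, both of C57BL/6 mouse embryos in mid-gestation (E12.5). There were 4 groups of 2 libraries each: mutant cushion, wild type cushion, mutant ventricle and wild type ventricle. The mutants carry the genotype label NfatC1+/-; KLF2fl/fl, and whether +/- marks a lost Nfatc1 copy or an allele bearing a recombinase is not stated. The controls are labelled wild type, although the study's design text sets Nfatc1 KLF2 fl/fl mice beside KLF2 fl/fl mice, so that floxed Klf2 alleles may be shared by all groups. Embryo numbers per library, pooling and rinsing of blood from the tissue are not stated either.

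Platelets are cell fragments shed into the blood by megakaryocytes, and in the embryo they come from yolk sac and fetal liver megakaryocytes. They stick to damaged vessels through surface receptors and then release granules filled with chemokines and adhesive proteins. Factors of the GATA, ETS and RUNX families, with their partners, drive the genes of this lineage. In embryos the platelet receptor encoded by Clec1b, bound by podoplanin on lymphatic endothelium, helps to keep blood and lymphatic vessels apart.

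The members fall into 3 roles. Plek encodes pleckstrin, the main protein kinase C substrate of platelets, which leukocytes also make, and Rab27b encodes a small GTPase that platelets need to secrete dense granules. Pf4 and Ppbp encode chemokines stored in platelet alpha granules. The other genes encode surface proteins: Itga2b the alpha chain of the platelet fibrinogen receptor, which early blood progenitors also carry, Gp9 and Gp5 members of the von Willebrand factor receptor complex, Clec1b the podoplanin receptor CLEC-2, and Treml1 a receptor that reaches the surface from alpha granules on activation.

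Promoters are shown for Plek, which was among the genes chosen for their cushion difference, for Treml1 and Gp9, whose levels differed between mutant cushion and mutant ventricle below, and for Gp5, which held motifs of both the GATA and the ETS family. Each is the run of 250 bases before the gene's start, 5′ to 3′ on the gene's strand, from RefSeq on build GRCm38.p6, at chr11:17008719-17008968 (minus strand) for Plek, chr17:48359666-48359915 (plus) for Treml1, chr6:87777820-87778069 (plus) for Gp9 and chr16:30310782-30311031 (minus) for Gp5. Capitals mark the GATA motifs AGATAA and TGATAA and the ETS motifs AGGAAG and CGGAAG, read on both strands, so TTATCT and CTTCCT are their reverse complements.
Plek: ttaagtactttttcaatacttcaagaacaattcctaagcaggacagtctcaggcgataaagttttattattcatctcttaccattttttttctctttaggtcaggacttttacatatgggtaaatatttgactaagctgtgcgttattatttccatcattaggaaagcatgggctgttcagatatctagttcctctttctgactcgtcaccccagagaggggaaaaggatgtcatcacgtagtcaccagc
Treml1: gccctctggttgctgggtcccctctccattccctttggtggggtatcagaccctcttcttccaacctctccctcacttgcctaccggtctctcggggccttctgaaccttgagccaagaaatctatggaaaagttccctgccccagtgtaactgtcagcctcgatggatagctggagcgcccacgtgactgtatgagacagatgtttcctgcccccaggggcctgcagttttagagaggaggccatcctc
Gp9: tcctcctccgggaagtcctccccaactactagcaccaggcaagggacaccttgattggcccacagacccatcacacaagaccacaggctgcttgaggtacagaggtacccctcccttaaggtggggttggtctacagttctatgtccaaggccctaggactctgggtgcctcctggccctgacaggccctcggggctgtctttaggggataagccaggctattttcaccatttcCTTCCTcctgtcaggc
Gp5: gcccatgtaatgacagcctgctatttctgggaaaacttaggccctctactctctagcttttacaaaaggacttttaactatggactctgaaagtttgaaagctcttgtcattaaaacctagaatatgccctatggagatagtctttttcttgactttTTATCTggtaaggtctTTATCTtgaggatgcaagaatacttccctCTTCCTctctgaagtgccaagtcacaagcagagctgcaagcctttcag
RefSeq promoters were matched for 8 of the 9 genes. A GATA motif lay in 2 of the 8, Clec1b and Gp5, against 17.0% of 27025 promoters of the same length. An ETS motif lay in 4 of the 8, Pf4, Itga2b, Gp9 and Gp5, against 39.0% of all promoters. Gp5 alone held both, as did 5.57% of all promoters. CACCC, a core that factors of the KLF family can bind, counted on both strands and not capitalised, lay in Plek and Gp9 and in 51.3% of all promoters. Matches of different motifs could overlap. A match is only a description of letters in this window.

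The libraries held between 18955733 and 26579215 counts with 1 row kept per symbol. Levels are CPM, which put every library on 1 size after TMM (trimmed mean of M-values) scaling, and 1 CPM stood for 18.7 to 25.3 reads. Klf2, the targeted gene, was at 1.96 and 0.651 CPM in mutant cushions and at 17.3 and 12.9 CPM in wild type cushions. In ventricles it was at 0.735 and 0.625 CPM in mutants and at 11.7 and 9.18 CPM in wild type, so the mutant labels held in every library. Tissue labels were checked on 10 markers of cushion mesenchyme, whose summed level was 6810 to 10900 CPM in mutant cushions, 7050 to 14800 CPM in wild type cushions, 1170 to 3610 CPM in mutant ventricles and 1480 to 3740 CPM in wild type ventricles, so every cushion library lay above every ventricle library. The sum of 10 cardiomyocyte markers overlapped between the wild type tissues but not between the mutant ones. It was 27700 to 31400 CPM in mutant cushions, 25300 to 44000 CPM in wild type cushions, 37600 to 88000 CPM in mutant ventricles and 37000 to 97900 CPM in wild type ventricles. Ttn, at 10600 to 70700 CPM, was its largest part in every library. Taken singly, 8 of the 10 markers lay lower in mutant cushions than in mutant ventricles without overlap, and 1 lay higher. In wild type 7 lay lower and 0 higher. Of the cushion libraries, mutant cushion replicate 2 lay nearest to the ventricles, at -22.8 on the first principal component while the 3 others were at -54.9 to -46.3. It also held more RNA of the chamber gene Nppa, 754 CPM against 142 CPM in mutant cushion replicate 1 and 242 and 335 CPM in wild type cushions. Cushion fold changes of Plek and Rab27b without it are given below.

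All 9 genes passed the filter on low counts, with between 4 and 1708 counts per library. Per kilobase of the longest coding transcript, the mean level over the 8 libraries was highest for Pf4, at 12.6 CPM per kb, then Plek at 10.5, Ppbp at 8.75 and Clec1b at 6.87 CPM per kb. Itga2b followed at 3.48, Rab27b and Treml1 at 1.93 each, Gp9 at 0.857 and Gp5 at 0.527 CPM per kb. The Rab27b value rests on a transcript of 6891 bases and would be 4.97 CPM per kb on the shorter one of 2671 bases. In mutant cushions Plek had the highest level of the 9, 18.6 CPM per kb against 9.35 for Pf4. In wild type cushions it was below Pf4, at 7.69 against 11.4 CPM per kb.

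The question in the cushion comparison is how the genes differ between genotypes where the study set out to examine Klf2. Plek was 2.42 times and Rab27b 2.15 times as high in mutant as in wild type cushions. The other 7 genes did not share this: 3 were higher and 4 lower, with a median log2 fold change of -0.29, beside -0.01 over all 14940 symbols tested. In the bulk tissue used here, a change in how many cells of a type were present and a change in RNA per cell cannot be told apart.

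Plek stood at 83.7 and 69.1 CPM in mutant cushions and at 27.4 and 35.7 CPM in wild type cushions. Both mutant cushion libraries were above the other 6 libraries of the study. The log2 fold change was 1.28 ± 0.24 (SE, n = 2 each). Leaving out single libraries gave 1.08 to 1.48, with 1.41 without mutant cushion replicate 2. Rab27b stood at 21.0 and 14.2 CPM in mutant cushions and at 8.73 and 7.63 CPM in wild type cushions. The groups did not overlap, and the wild type cushions were the lowest of the 4 groups. Its log2 fold change was 1.11 ± 0.21 (SE, n = 2 each), with 0.80 to 1.36 when single libraries were left out and 1.36 without mutant cushion replicate 2. Across genes, which are not independent replicates, the cushion fold change ran with transcript GC content, with a Spearman rho of -0.619 over 14761 symbols. Plek and Rab27b have 41.8% and 37.9% GC against a median of 50%, and with the replicate number as a block and a correction for GC content and length their log2 fold changes were 1.0 and 0.80.

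Plek RNA could be counted together with its neighbour Cnrip1, since in the GENCODE vM21 annotation 199 exon bases of Plek lie on the opposite strand of Cnrip1 exons and the strand setting of the counting is not given in the sources used here. Cnrip1 stood at 9.81 and 12.6 CPM in mutant cushions and at 11.4 and 10.1 CPM in wild type cushions, so its groups overlapped. Rab27b had 2 rows in the table that differed by at most 2 counts per library. Clec1b shares 184 exon bases with Clec9a on the same strand in that annotation, and Clec9a had 13 to 29 counts per library.

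Among the surface proteins, Itga2b stood at 9.22 and 9.24 CPM in mutant cushions and at 10.3 and 12.8 CPM in wild type cushions, a log2 fold change of -0.32 ± 0.25 (SE). Gp9 stood at 0.441 and 0.174 CPM in mutant cushions, 9 and 4 counts, and at 0.563 and 0.593 CPM in wild type cushions, 12 and 15 counts, with -0.93 ± 0.53 (SE). These were the 2 members whose mutant libraries both lay below both wild type libraries. With the block and the GC and length correction the value for Itga2b was 0.01 and that for Gp9 -0.70. The limit that 3 counts set lay between 0.119 and 0.16 CPM over the libraries, just under the lower Gp9 value.

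In the remaining 5 genes the mutant and wild type cushion libraries overlapped. Treml1 stood at 1.57 and 1.56 CPM in mutant cushions and at 1.55 and 2.65 CPM in wild type cushions. Clec1b stood at 6.42 and 9.72 CPM in mutant cushions and at 5.87 and 6.92 CPM in wild type cushions. Gp5 stood at 0.588 and 1.17 CPM in mutant cushions and at 0.610 and 0.831 CPM in wild type cushions. These receptors thus spread as widely within a genotype as between genotypes. The alpha granule chemokine Pf4 stood at 5.83 and 5.17 CPM in mutant cushions and at 4.32 and 9.10 CPM in wild type cushions. Ppbp stood at 7.16 and 8.68 CPM in mutant cushions and at 4.88 and 7.40 CPM in wild type cushions. The log2 fold changes of these 5 genes ran from -0.43 ± 0.35 (SE) for Treml1 to 0.36 ± 0.26 (SE) for Ppbp. With the block and the GC and length correction they were -0.22 for Treml1, 0.16 for Clec1b, -0.38 for Pf4, 0.03 for Ppbp and 0.64 for Gp5. Leaving out 1 library changed the sign for Treml1, with 0.02 without wild type cushion replicate 2, for Pf4, with 0.35 without the same library, and for Gp5, with -0.30 without mutant cushion replicate 2.

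For scale, edgeR called 0.0% of the 14940 symbols in the cushion comparison at an adjusted p under 0.05, and 1699 had an unadjusted p under 0.05. With the replicate number as a block it called 0.863%, 0.295% as higher and 0.569% as lower, and DESeq2 called 0.167%. Mutant cushion libraries both lay above both wild type libraries in 24.5% of symbols and below them in 23.9%. As the genes were chosen with this comparison in view, nothing is read from their counts against these shares.

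**Figure D1:**
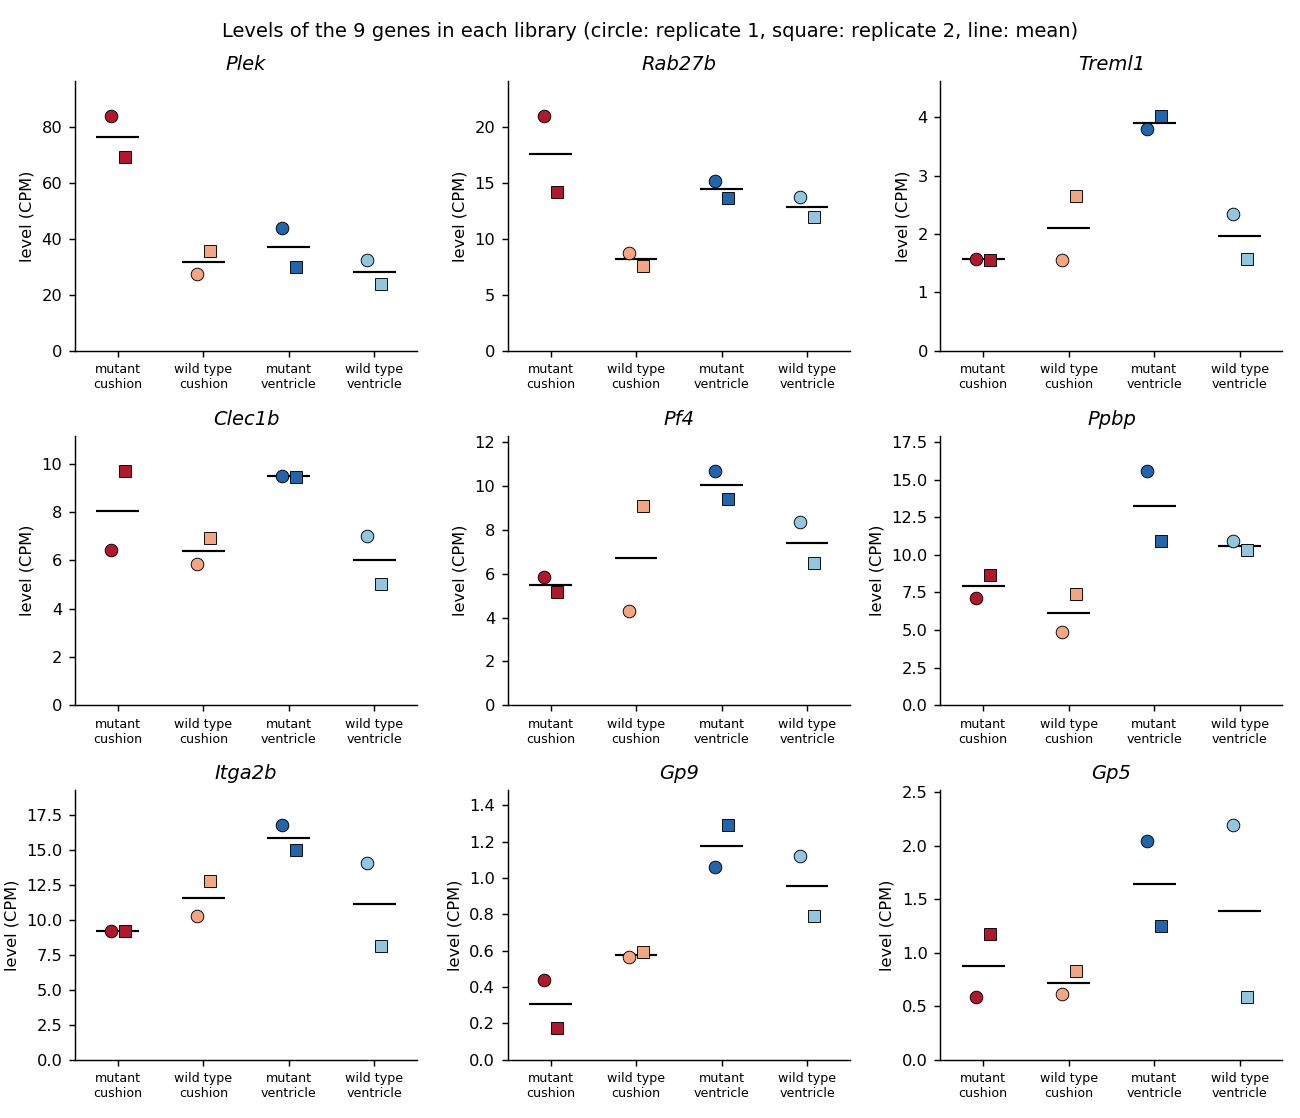
Level in CPM (y axis, linear from 0, scaled per gene) of the 9 genes in each of the 8 libraries, grouped on the x axis as mutant cushion, wild type cushion, mutant ventricle and wild type ventricle. Circles are replicate 1, squares replicate 2 and lines group means; Plek is highest in the mutant cushions, at 83.7 and 69.1 CPM, while Treml1 is highest in the mutant ventricles, at 3.80 and 4.02 CPM.

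Mutants were also compared with wild type in ventricles, a comparison that was not independent of the choice of the genes, for the reason given below. All 9 genes had a higher mean in mutant than in wild type ventricles, and none passed the test. The median log2 fold change of the 9 was 0.39 and that of the 7 without Plek and Rab27b 0.44, beside -0.01 over all symbols tested, of which 47.9% were higher. In edgeR's quasi-likelihood test with Benjamini-Hochberg adjustment over all 14940 symbols the adjusted p was 0.998 for each of the 9, and it was 0.674 to 0.886 with the replicate number as a block. Across genes, which are not independent replicates, the ventricle fold change ran with transcript GC content at a Spearman rho of 0.471. GC content of the 9 ran from 37.9% for Rab27b to 59.3% for Gp5, against a median of 50%. With the block and the GC and length correction their log2 fold changes ran from 0.16 for Gp9 to 0.84 for Treml1. A tilt of platelet genes towards mutant ventricles was already known from these libraries when the 9 were chosen. The higher mean of all 9 is therefore no separate evidence.

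Treml1 stood at 3.80 and 4.02 CPM in mutant ventricles and at 2.35 and 1.58 CPM in wild type ventricles, with a log2 fold change of 0.99 ± 0.33 (SE, n = 2 each). Its mutant ventricle libraries were above all 6 other libraries. Clec1b stood at 9.52 and 9.46 CPM in mutant ventricles and at 7.0 and 5.01 CPM in wild type ventricles, a log2 fold change of 0.66 ± 0.26 (SE). Itga2b stood at 16.8 and 15 CPM in mutant ventricles and at 14.1 and 8.18 CPM in wild type ventricles, with 0.52 ± 0.25 (SE). Pf4 stood at 10.7 and 9.42 CPM in mutant ventricles and at 8.34 and 6.49 CPM in wild type ventricles, with 0.44 ± 0.32 (SE). In these 4 genes the genotypes did not overlap, against 13.1% of all symbols whose mutant ventricle libraries both lay above both wild type ones. Of all symbols edgeR called 0.0% in this comparison, with 342 at an unadjusted p under 0.05, and the fit with the block and DESeq2 each called 0.00669%, or 1 symbol.

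The other 5 genes overlapped between the ventricle groups. Ppbp stood at 15.6 and 10.9 CPM in mutant ventricles and at 10.9 and 10.3 CPM in wild type ventricles. Gp9 stood at 1.06 and 1.29 CPM in mutant ventricles and at 1.12 and 0.792 CPM in wild type ventricles. Gp5 stood at 2.04 and 1.25 CPM in mutant ventricles and at 2.19 and 0.581 CPM in wild type ventricles, so that its wild type libraries held both the highest and the lowest value. Plek stood at 43.8 and 30.0 CPM in mutant ventricles and at 32.5 and 23.9 CPM in wild type ventricles, a log2 fold change of 0.39 ± 0.24 (SE). Rab27b stood at 15.2 and 13.7 CPM in mutant ventricles and at 13.8 and 12 CPM in wild type ventricles, with 0.16 ± 0.21 (SE). The difference seen in cushions for Plek and Rab27b was thus smaller in ventricles in the fitted value, by 0.89 ± 0.33 and 0.95 ± 0.30 (SE) on the log2 scale. With the block and the GC and length correction they were 0.48 and 0.41, and across genes, which are not independent replicates, this difference ran with GC content at a Spearman rho of -0.672. These differences hold the cushion values that chose the genes and were not tested.

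For Treml1 the genotype difference in cushions minus that in ventricles was -1.42 ± 0.48 (SE), for Gp9 -1.22 ± 0.69 (SE) and for Itga2b -0.84 ± 0.36 (SE), which was -0.43 with the block and the GC and length correction. Itga2b was the single member whose mutant libraries did not overlap with wild type in either tissue and lay on opposite sides. They were lower in cushions and higher in ventricles, as in 778 of all 14940 symbols tested. A split in either direction was found in 1869 symbols, so it does not set Itga2b apart. The genotype difference in cushions minus that in ventricles was -0.73 ± 0.46 (SE) for Pf4 and -0.32 ± 0.36 for Clec1b. It was 0.04 ± 0.36 for Ppbp and 0.04 ± 0.86 for Gp5. With the block and the GC and length correction it was -0.81 for Pf4, -0.52 for Clec1b, -0.38 for Ppbp and 0.47 for Gp5. The corrected values were -1.07 for Treml1 and -0.86 for Gp9. Over all symbols edgeR called 0.0% for this difference, and 1776 had an unadjusted p under 0.05.

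**Figure D2:**
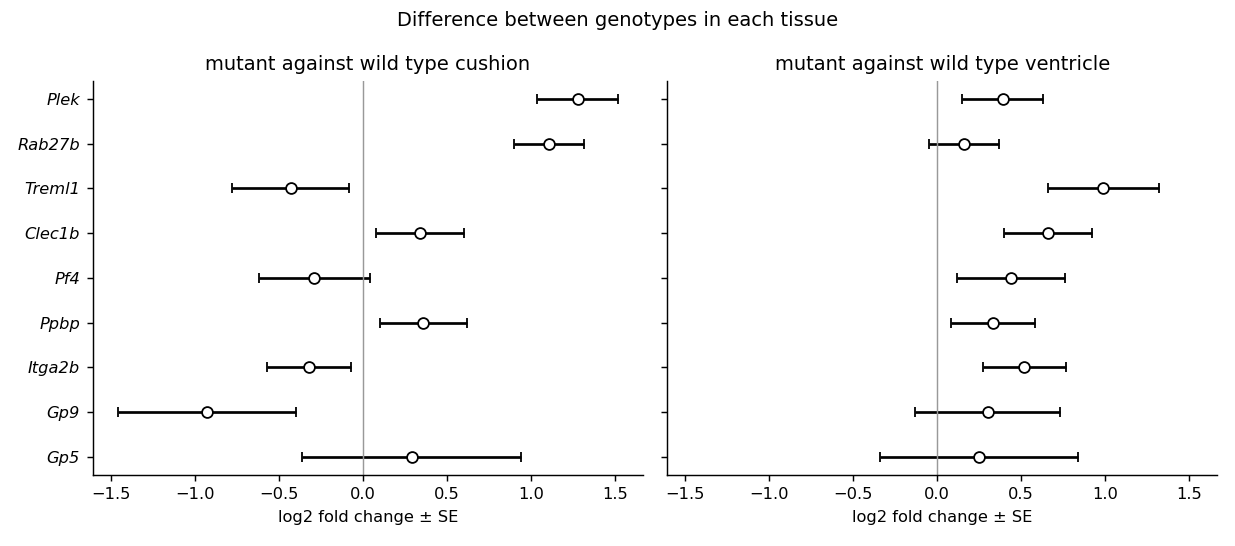
Fitted log2 fold change of mutant against wild type (x axis, the same in both panels) for the 9 genes in cushions (left) and ventricles (right); points are edgeR estimates and bars ± 1 SE, with 2 libraries per group. In cushions Plek (1.28) and Rab27b (1.11) lie to the right of the other 7, which run from -0.93 to 0.36, and in ventricles all 9 lie between 0.16 and 0.99.

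Comparing tissues within a genotype asks how these genes are spread over the heart. In mutants, the 7 genes other than Plek and Rab27b were all lower in cushions than in ventricles, with a median log2 fold change of -0.87 against 0.01 over all symbols tested. Of the 7, 2 passed edgeR's test, Treml1 and Gp9, and 0 passed as higher. The tilt towards mutant ventricles that was known beforehand enters this comparison too, so these calls are not independent of the choice. Over all symbols 9.42% were called in this comparison and 3.26% as lower. In 6 of the 7, all but Clec1b, both mutant cushion libraries lay below both mutant ventricle libraries, as did those of 24.2% of all symbols. Plek and Rab27b are given without a test, because their mutant cushion values were used to choose them.

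Treml1 fell to 1.57 ± 0.00454 CPM in mutant cushions, against 3.91 ± 0.154 CPM in mutant ventricles (SD, n = 2 each), a log2 fold change of -1.32 ± 0.34 (SE) with edgeR's adjusted p = 0.0445. With the replicate number as a block the adjusted p was 0.00776, and it stayed between 0.00422 and 0.0351 when single libraries were left out of that fit. Without the block, leaving out either wild type cushion library kept the call, and leaving out any of the 6 others ended it. The adjusted p was then 0.218 and 0.125 without mutant cushion replicate 1 and 2, 0.0922 and 0.156 without mutant ventricle replicate 1 and 2, and 0.0570 and 0.0639 without wild type ventricle replicate 1 and 2.

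Gp9 fell to 0.307 ± 0.189 CPM in mutant cushions, against 1.18 ± 0.164 CPM in mutant ventricles (SD, n = 2 each), with a log2 fold change of -1.94 ± 0.50 (SE) and an adjusted p of 0.0441 in edgeR. The counts behind these values were 9 and 4 in mutant cushions and 26 and 29 in mutant ventricles. DESeq2 did not call it (adjusted p = 0.0526), and the call ended on leaving out any of the 8 libraries, with an adjusted p of 0.0632 to 0.187. With the block the adjusted p was 0.011, and it was 0.122 and 0.114 in that fit without mutant cushion replicate 2 or mutant ventricle replicate 2. Without each of the other 6 libraries it was 0.013 to 0.0263.

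Itga2b averaged 9.23 ± 0.0194 CPM in mutant cushions and 15.9 ± 1.23 CPM in mutant ventricles (SD, n = 2 each), and Ppbp averaged 7.92 ± 1.08 CPM in mutant cushions and 13.3 ± 3.36 CPM in mutant ventricles. Their log2 fold changes of -0.79 ± 0.25 and -0.74 ± 0.26 (SE) had edgeR adjusted p-values of 0.0902 and 0.11. With the block both passed, at 0.0185 and 0.0311, where 23.9% of all symbols were called and 10.5% as lower. Itga2b also passed in DESeq2 (0.0455), where Ppbp did not (0.0762), and with the block and the GC and length correction Itga2b passed (0.00735) and Ppbp did not (0.0508). In the block fits that left out 1 library, 5 of 8 called each of them, with the highest adjusted p at 0.0944 for Itga2b without mutant cushion replicate 1 and at 0.368 for Ppbp without mutant ventricle replicate 1. Pf4, at 5.83 and 5.17 CPM in mutant cushions and at 10.7 and 9.42 CPM in mutant ventricles, had a log2 fold change of -0.87 ± 0.33 (SE) that did not pass in edgeR (adjusted p = 0.138, and 0.0549 with the block). Clec1b, with -0.23 ± 0.25 (SE), and Gp5, with -0.89 ± 0.61 (SE), did not pass (edgeR adjusted p = 0.635 and 0.419). Plek went against the 7, with a log2 fold change of 1.05 ± 0.24 (SE) in mutant cushions over mutant ventricles and no overlap between them, as in 28.9% of all symbols. Rab27b, at 0.29 ± 0.21 (SE), overlapped.

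In wild type the 7 genes were split, with 3 higher and 4 lower in cushions than in ventricles and a median log2 fold change of -0.14. None passed in edgeR, where 23.1% of all symbols were called and 10.6% as lower. Ppbp averaged 6.14 ± 1.78 CPM in wild type cushions and 10.6 ± 0.430 CPM in wild type ventricles (SD, n = 2 each), with a log2 fold change of -0.78 ± 0.26 (SE) and an adjusted p of 0.0606. It passed with the block (adjusted p = 0.0186), where 41.4% of symbols were called and 20.1% as lower, and in DESeq2 (0.0404), which called 23.3%. It did not pass with the block and the GC and length correction (0.323), and 5 of 8 block fits that left out 1 library called it. Every ventricle library held more Ppbp than every cushion library, in either genotype.

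The libraries of Gp9 did not overlap between the wild type tissues either, at 0.578 ± 0.0213 CPM in cushions and 0.957 ± 0.234 CPM in ventricles (SD, n = 2 each), while its log2 fold change of -0.72 ± 0.46 (SE) did not pass in edgeR (adjusted p = 0.289). Those 2 genes compare with 31.8% of all symbols whose wild type cushion libraries both lay below both ventricle libraries. Treml1, Clec1b, Pf4 and Itga2b had log2 fold changes from -0.14 to 0.10, with overlapping libraries and edgeR adjusted p-values from 0.79 to 0.892. Gp5 had -0.93 ± 0.64 (SE) and an adjusted p of 0.319. Plek had 0.16 ± 0.24 (SE). Rab27b had -0.66 ± 0.22 (SE), with both wild type cushion libraries below both wild type ventricle libraries, and neither was tested.

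**Figure D3:**
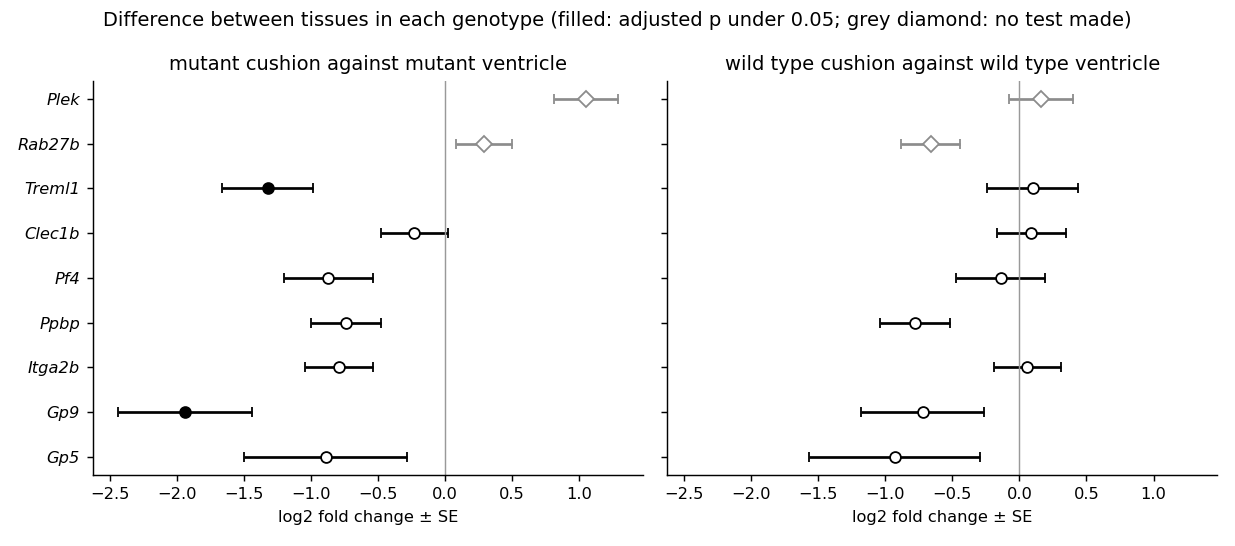
Fitted log2 fold change of cushion against ventricle (x axis, the same in both panels) for the 9 genes in mutants (left) and wild type (right); points are edgeR estimates, bars ± 1 SE, filled points have an adjusted p under 0.05 and grey diamonds mark Plek and Rab27b, for which no test was made. In mutants the 7 other genes all lie below 0, with Treml1 (-1.32) and Gp9 (-1.94) filled, and in wild type they run from -0.93 to 0.10 with none filled.

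The order of the groups followed from these values. Mutant ventricles had the highest mean of the 4 groups in 7 of the 9 genes, all but Plek and Rab27b. In Treml1, Pf4 and Itga2b both mutant ventricle libraries were above all other libraries, and the lower 3 groups overlapped with their neighbours in order, apart from Treml1 in mutant cushions, at most 1.57 CPM against at least 1.58 CPM in wild type ventricles. For Clec1b and Gp5 every pair of neighbouring groups overlapped. For Ppbp the ventricle groups overlapped with each other, as did the cushion groups, and for Gp9 only the ventricle groups did. For Plek, mutant cushions at 76.4 ± 10.4 CPM were followed by mutant ventricles at 36.9 ± 9.75 CPM, wild type cushions at 31.5 ± 5.91 CPM and wild type ventricles at 28.2 ± 6.10 CPM (SD, n = 2 each), and neighbours among the lower 3 overlapped. For Rab27b, mutant cushions at 17.6 ± 4.77 CPM overlapped with mutant ventricles at 14.4 ± 1.06 CPM, and these with wild type ventricles at 12.9 ± 1.28 CPM, while wild type cushions were lower at 8.18 ± 0.775 CPM (SD, n = 2 each).

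Likeness between genes was measured as the root mean square difference of their log2 CPM over the 8 libraries, each centred on its own mean, so that 0 means the same profile. The closest members were Treml1 with Itga2b and Treml1 with Pf4, at 0.24 each, and Pf4 with Itga2b, at 0.25. Plek and Rab27b differed by 0.46, and the pair farthest apart was Plek with Gp9, at 1.21. Outside the set and among 12280 candidates, the nearest to Plek were Evi2a at 0.26, Tnfrsf11a and Cdh10 at 0.29 each, and AI504432 and Serpinb8 at 0.30 each, where the median candidate was at 0.65. Rab27b ranked at 200 by its distance to Plek, while Plek ranked at 4826 by its distance to Rab27b. Both were chosen for their cushion difference, so the likeness between them is not independent of the choice. The nearest to Rab27b were F8a, Zbtb16 and Pgbd1 at 0.21 each and Uty and Bai3 at 0.23 each, with a median of 0.50. The nearest to the mean profile of the other 7 genes were Plxnd1 at 0.07, Pnpla2 at 0.14, Tubb1 at 0.15, Ksr1 at 0.17 and Chrna7 at 0.18, with a median of 0.48. Tubb1 encodes the beta-tubulin of platelets and stood at 5.34 and 6.25 CPM in mutant cushions, 4.88 and 8.19 CPM in wild type cushions, 11.2 and 9.82 CPM in mutant ventricles and 9.24 and 4.59 CPM in wild type ventricles.

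Of 47 other platelet and megakaryocyte genes, 45 were tested. In cushions 20 were higher and 24 lower in mutants, the median log2 fold change being -0.01, and 0 passed in edgeR with or without the block, with 2 at an unadjusted p under 0.05. These 2 encode the ADP receptors of platelets, P2ry1 and P2ry12. P2ry1 stood at 44.9 and 37.8 CPM in mutant cushions and at 30.4 and 26.5 CPM in wild type cushions, a log2 fold change of 0.54 ± 0.16 (SE). P2ry12 stood at 4.51 and 3.17 CPM in mutant cushions and at 1.83 and 2.41 CPM in wild type cushions, with 0.85 ± 0.29 (SE). Both had an edgeR adjusted p of 0.435. In both, mutant cushions lay above wild type cushions without overlap, as in 24.5% of all symbols. Of the 45 genes, 7 lay apart as higher and 5 as lower, where 24.5% and 23.9% of all symbols did. With the block and the GC and length correction the log2 fold changes were 0.38 for P2ry1 and 0.45 for P2ry12.

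In ventricles 36 of the 45 were higher in mutants and 9 lower, where 47.9% of all symbols were higher. Their median log2 fold change was 0.17, and 0 passed in edgeR with or without the block or at an unadjusted p under 0.05. All 11 tested genes of signalling and cytoskeleton were higher, with a median of 0.29, and so were all 7 transcription factors, with a median of 0.15. Receptors were higher in 10 of 13 and granule genes in 8 of 14. These lists were drawn up with earlier results of these data known, among them the tilt of platelet genes towards mutant ventricles. The counts of higher genes are therefore no separate evidence. The smallest p-values among the higher genes belonged to Mmrn1, an alpha granule protein gene, with 0.55 ± 0.24 (SE), Alox12, a platelet lipoxygenase gene, with 0.55 ± 0.26 (SE), and F2rl3, a thrombin receptor gene, with 0.97 ± 0.48 (SE). Among the lower genes it belonged to Rab27a, the close relative of Rab27b, with -0.39 ± 0.19 (SE). Each of these had an edgeR adjusted p of 0.998. The podoplanin gene Pdpn, whose product binds the receptor of Clec1b, had log2 fold changes of -0.08 in cushions and 0.05 in ventricles.

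**Figure D4:**
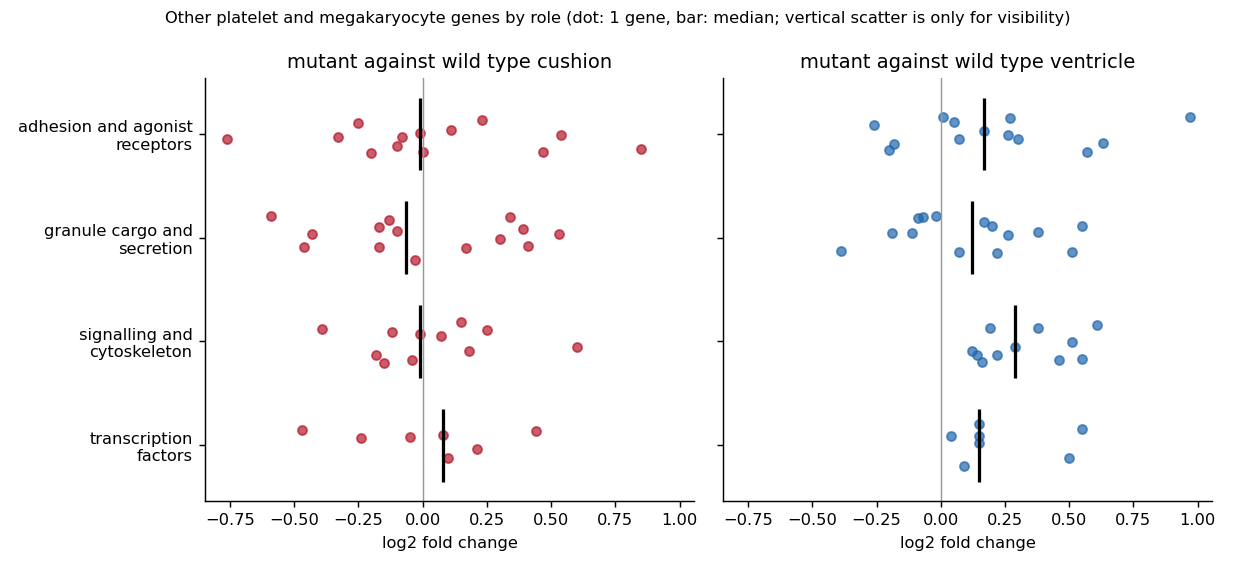
Fitted log2 fold change of mutant against wild type (x axis) for 45 other platelet and megakaryocyte genes in 4 role lists (rows), in cushions (left) and ventricles (right); each dot is a gene and each bar the median of its list. In cushions the medians lie between -0.06 and 0.08, and in ventricles between 0.12 and 0.29 with all 11 signalling genes and all 7 transcription factors above 0. The lists were drawn up with earlier results of these data known.

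Between tissues the other listed platelet genes went both ways, and which cells made their RNA cannot be told in bulk tissue. In mutants 1 rose and 3 fell in cushions against ventricles in edgeR, and 6 rose and 6 fell with the block, where 9.42% and 23.9% of all symbols were called. P2ry1 rose in mutant cushions over mutant ventricles, with 1.79 ± 0.17 (SE, adjusted p = 0.00121), and in wild type cushions over wild type ventricles, with 1.06 ± 0.17 (SE, adjusted p = 0.00412), and 8 of 8 fits that left out 1 library called each. Ptgs1, the platelet cyclooxygenase gene, fell in cushions, with -0.71 ± 0.13 (SE, adjusted p = 0.0127) in mutants and -0.78 ± 0.13 (SE, adjusted p = 0.00487) in wild type. Plcg2, a phospholipase gene that acts below the CLEC-2 receptor, fell too, with -1.24 ± 0.21 (SE, adjusted p = 0.00961) in mutants and -1.09 ± 0.21 (SE, adjusted p = 0.00834) in wild type. Leaving out 1 library ended the mutant calls of Plcg2 (0.0796) and Ptgs1 (0.116) without mutant cushion replicate 1, of Ptgs1 also without mutant ventricle replicate 2 (0.0570), and the wild type call of Plcg2 without wild type cushion replicate 1 (0.0556). Syk, a kinase gene of the same pathway, fell in mutant cushions with -0.59 ± 0.15 (SE, adjusted p = 0.0435), a call that ended without any library but mutant cushion replicate 2, at adjusted p from 0.0546 to 0.302.

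In wild type 4 other genes rose and 2 fell in edgeR, and 10 rose and 3 fell with the block, where 23.1% and 41.4% of all symbols were called. Besides P2ry1, those that rose were Zfpm1, a partner of GATA factors, with 1.31 ± 0.26 (SE, adjusted p = 0.0105), Gp1bb, another chain of the von Willebrand factor receptor, with 1.08 ± 0.29 (SE, adjusted p = 0.0311), and Thbs1, a thrombospondin gene that many cells express, with 2.60 ± 0.64 (SE, adjusted p = 0.0366). The adjusted p of Zfpm1 was 0.0568 without wild type cushion replicate 2 and 0.101 without wild type ventricle replicate 2. Gp1bb lost its call without any of the 4 wild type libraries (adjusted p = 0.0751 to 0.148) and with the block and the GC and length correction (0.117). Thbs1 lost it without wild type cushion replicate 1 (0.151) or 2 (0.0959), mutant cushion replicate 1 (0.0509) or wild type ventricle replicate 2 (0.119), and with no filter on low counts (0.0755). Gp9, which belongs to the same receptor complex as Gp1bb, had -0.72 in this comparison and did not pass.

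Markers of other blood and vessel cells were summed for comparison with these genes. The summed level of the 7 members other than Plek and Rab27b was 31.2 and 35.7 CPM in mutant cushions, 28.1 and 40.3 CPM in wild type cushions, 59.5 and 51.4 CPM in mutant ventricles and 46.0 and 32.9 CPM in wild type ventricles. For 18 leukocyte markers, cells that also make Plek, the sum was 194 and 281 CPM in mutant cushions, 182 and 213 CPM in wild type cushions, 169 and 225 CPM in mutant ventricles and 159 and 174 CPM in wild type ventricles. Of the 17 tested, 16 were higher in mutant cushions and 17 in mutant ventricles, with median log2 fold changes of 0.26 and 0.36. Over all symbols 49.3% were higher in mutant cushions and 47.9% in mutant ventricles. The 15 erythroid markers summed to 4180 and 1330 CPM in mutant cushions, 2220 and 1080 CPM in wild type cushions, 8700 and 3230 CPM in mutant ventricles and 7500 and 2980 CPM in wild type ventricles, higher in replicate 1 of every group. Of these, 12 were higher in mutant cushions and 14 in mutant ventricles. Hba-a1 and Hba-a2 had the same level in every library, as did Hbb-b1 and Hbb-b2. The genes of each pair enter the sums and counts separately. Of 12 endothelial markers, 5 were higher in mutant cushions and 11 in mutant ventricles, with medians of -0.02 and 0.30. No gene of these 3 lists passed edgeR's test in either genotype comparison, with or without the block, and none was at 0 in all libraries. Their part in the differences of the platelet genes was not tested.

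**Figure D5:**
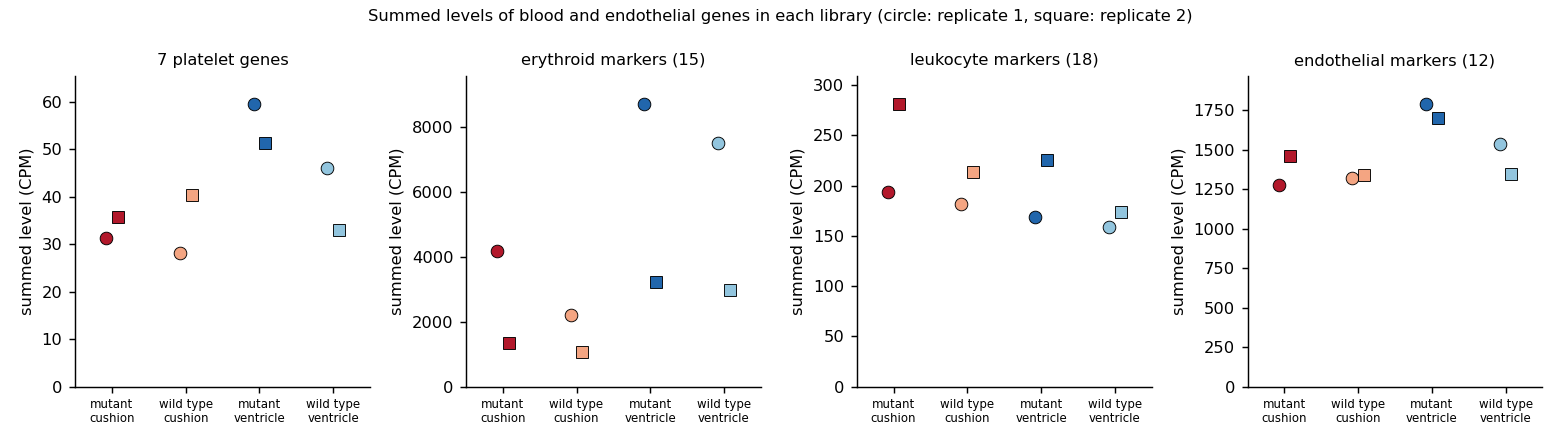
Summed level in CPM (y axes, linear from 0, scaled per panel) of the 7 platelet genes other than Plek and Rab27b, of 15 erythroid, 18 leukocyte and 12 endothelial markers in each of the 8 libraries; circles are replicate 1 and squares replicate 2. The platelet sum is highest in the mutant ventricles, at 59.5 and 51.4 CPM, and the circle of the erythroid sum lies above the square in every group.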

How the data were processed

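Counts per row of reads from total RNA of 8 mouse heart libraries, as deposited by the authors, were read from 1 of 8 identical tables, and columns were matched to samples by title. Per the labels' protocols the RNA was stored until genotyping, extracted with a Qiagen micro kit and made into stranded libraries after removal of ribosomal RNA. Per the submitters' processing notes Bowtie 0.12.7 and build mm9 were used; the sources used here name no counter, annotation or strand setting. Of 28644 rows, 22869 were kept, 1 per symbol, taking the row of most counts for the 3705 symbols on several rows. Members and lists were chosen with earlier results of these data known. The labels tie no library to its own embryo or litter, so the spread behind each p-value may be technical; replicates differed by more than sampling noise (chi-square per degree of freedom 44.1 to 113.5).

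edgeR 4.0.16 in R 4.3.3 (TMM, filtering by expression, robust quasi-likelihood fit over 4 groups, two-sided, Benjamini-Hochberg over 14940 symbols, threshold 0.05) gave the main results and was tested on simulated counts. SE is the log2 fold change over the root of F. Alternatives were DESeq2 1.42.0, no filter, summed rows, the replicate number as a block, the block with a spline on GC content and length (GENCODE vM21, 98.3% of symbols matched), each library left out and, chosen after seeing the data, each library left out of the block fit. Replicate numbers are shared by all groups, and the labels do not say what they mark. Deviations from group means correlated between groups in all 6 pairs (r 0.341 to 0.522 across genes), and the numbers were used as a block. With 2 libraries per group the deviations mirror each other, so these correlations cannot establish a pairing. Results with the block depend on that assumption. Named genes are all members, Klf2, listed genes with the smallest p per direction and the 5 nearest profiles (mean of at least 1 CPM, prior count 2). Of the listed genes, Bin2, Ahsp and Eraf were not found and Selp, Thpo and Cd14 were not tested; Syk is Sykb in the table. Not reported here are sequences of Rab27b and of proteins.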

Additional observations from a re-analysis of the deposited data

Results flagged for a closer look

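Itga2b was higher in both mutant ventricle libraries than in both wild type ones and lower in both mutant cushion libraries than in both wild type ones, with log2 fold changes of -0.32 in cushions and 0.52 in ventricles. The cushion value was 0.01 with the replicate block and the GC and length correction, and the difference -0.43. The difference of -0.84 was not tested, because Itga2b belongs to the chosen set. Among the other listed genes 4 had the same kind of split, which 1869 of all 14940 symbols tested had in either direction. P2ry1 had 0.54 in cushions and -0.20 in ventricles, a difference of 0.74 with an edgeR adjusted p of 0.415. P2ry12 had 0.85 and -0.26, a difference of 1.11 (adjusted p = 0.415), and Slc35d3, a gene needed for platelet dense granules, had 0.53 and -0.19, a difference of 0.72 (adjusted p = 0.509). Pear1, a platelet receptor gene, had -0.33 and 0.30, a difference of -0.63 (adjusted p = 0.415). None of the 4 tested differences passed.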

How the results depend on the processing

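In the 846 recomputed values of single genes, 728 kept their direction and side of the threshold or moved by less than the replicate spread. Of the rest, 40 lost and 26 gained a call, 37 moved by more and 15 tested values changed sign. Untested values were sorted only by how far they moved, so their changes of sign are not among the 15. The count of symbols called in cushions by genotype was 0 and became 129 with the replicate block, 76 with the block and the GC and length correction, 25 in DESeq2, 5 with no filter, 0 to 1 with a library left out, and 25 (without wild type cushion replicate 2) to 891 (without mutant cushion replicate 1) with the block and a library left out. In ventricles by genotype it was 0 and became 1 with the block, 1 with block and correction, 1 in DESeq2, 0 to 1 with a library left out, and 0 to 12 with the block and a library left out. Between wild type tissues it was 3452 (1861 higher, 1591 lower) and became 6180 with the block, 6177 with block and correction (2438 higher, 3739 lower), 739 to 3498 with a library left out, and 3037 to 6824 with the block and a library left out. Between mutant tissues it was 1407 (920 higher, 487 lower) and became 3572 with the block, 4755 with block and correction (1839 higher, 2916 lower), 309 to 1301 with a library left out, and 2363 to 3379 with the block and a library left out. The difference between the genotype effects called 0 in these settings, except with the block and a library left out, where it called 0 to 1312, the most without mutant cushion replicate 1. Signs changed between ventricle genotypes for Gp5 (0.25, and -0.41 to 1.53 with a library left out), and, with the block and mutant ventricle replicate 1 or 2 left out, for Ppbp (-0.08) and Gp9 (-0.06). Between wild type tissues they changed for Treml1 (0.10, and -0.34 to 0.42; -0.12 with block and correction), Clec1b (0.09, and -0.13 to 0.34), Pf4 (-0.14, and -0.78 to 0.29; 0.09 with block and correction), Itga2b (0.06, and -0.28 to 0.49; -0.41 with block and correction) and Gp5 (-0.93, and -1.59 to 0.31), and for the untested Plek (0.16, and -0.04 to 0.39). Between mutant tissues they changed for Clec1b (-0.23, and -0.56 to 0.03) and for the untested Rab27b (0.29, and -0.02 to 0.54; -0.05 with block and correction). The causes were not tested. Apart from Itga2b and Ppbp between mutant tissues and Ppbp between wild type tissues, the replicate block changed no call of a member. With 2 libraries per group, a library left out leaves a lone sample that is assumed to vary like the other groups. Gp9 and Gp5, at 4 to 50 counts per library, are limited by depth.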
